A study of Mus musculus with 6 samples.

Results

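The genes described here are 46 mouse genes of DNA base excision repair, nucleotide excision repair, mismatch repair and end joining, found by exact match of a fixed list of symbols among the 41079 genes of the deposited expression table. Their poly(A)+ RNA was sequenced from D10 T cells (D10.G4.1), a CD4+ helper T cell line that is a single clone specific for a chicken conalbumin peptide. Non-acclimated cells were kept for 24 h at 37°C and cold-acclimated cells for 24 h at 26°C, with 3 replicates of each. No other agent, allele or genotype distinguished the groups, the sources describe culture medium in different words, and the labels mention old and new RNA extractions without saying which library came from which. The comparison asks which repair genes differed in transcript level after a day in the cold. Values are TPM, a transcript abundance in which reads are divided by gene length and every library is brought to an equal total, so that levels can be compared between genes.

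Base excision repair removes small damaged bases. A glycosylase cuts out the base, an endonuclease opens the strand, and a polymerase and a ligase close the gap, with the scaffold XRCC1 and the PARP enzymes at strand breaks. Nucleotide excision repair removes bulky lesions such as those left by ultraviolet light: XPC or the DDB complex recognises them, TFIIH unwinds the strand, and the nucleases XPG and XPF with ERCC1 cut on either side. Mismatch repair uses MutS complexes to find replication errors and MutL complexes to direct their removal. Non-homologous end joining binds broken ends with the Ku heterodimer and DNA-PK and seals them with XRCC4 and ligase IV. In lymphocytes it also joins the breaks made during antigen receptor rearrangement.

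The 6 libraries held between 16899628 and 31290854 reads on genes, recovered from the steps between the TPM values. Markers of T cells were present, with Cd3e between 476 and 874 TPM and Gata3 between 387 and 751 TPM. Replicate 2 was low in Cd3d (64.3 and 78.6 TPM, against 240.1 to 332.4 TPM elsewhere) and Cd28 (7.35 and 5.61 TPM, against 27.9 to 54.5 TPM). Cd4, which defines the labelled cell type, went against the label in replicates 1 and 2. Its TPM was 1.09, 0.0351 and 309.7 in non-acclimated and 1.30, 0.352 and 328 in cold-acclimated replicates 1, 2 and 3. Thy1 was listed at 0 in all 6 libraries. The 8 B cell markers summed to between 2.095 and 3.62 TPM in non-acclimated and between 1.02 and 2.06 TPM in cold-acclimated libraries, with Ms4a1 at 0 throughout. The 8 macrophage and monocyte markers, with Cd14 at 0 throughout, summed to 2.87, 5.20 and 16.0 TPM in non-acclimated and 3.55, 2.90 and 21.5 TPM in cold-acclimated replicates 1 to 3. Replicates thus differed from each other in both conditions, replicate 3 in Cd4 and the macrophage markers and replicate 2 in Cd3d and Cd28. Counts of calls are given with and without each library.

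RefSeq promoter sequences on the build GRCm38.p6, which run from 250 bases before a gene's start to 50 bases after it, were matched by symbol for 37 of the 46 genes, with 41 windows in all. They are shown for Lig3, which had the smallest adjusted p, for Ercc4, which had the highest log2 fold change, and for Nthl1, which held an E2F site. The capitals mark 3 motifs searched on either strand, namely an E2F site (TTTGGCGC or TTTCGCGC, which can overlap each other), a CCAAT box (CCAAT) and a GC box (GGGCGG). For Lig3 (chr11:82780859-82781110, plus strand) the 250 bases before the start and the first 2 bases after it are given, since a GC box lies across the start. For Ercc4 (chr16:13109486-13109735, plus strand) the 250 bases before the start hold a CCAAT box on the reverse strand. For Nthl1 (chr17:24632539-24632568, plus strand) the 30 bases around the E2F site are given, which began 132 bases before the start.
Lig3: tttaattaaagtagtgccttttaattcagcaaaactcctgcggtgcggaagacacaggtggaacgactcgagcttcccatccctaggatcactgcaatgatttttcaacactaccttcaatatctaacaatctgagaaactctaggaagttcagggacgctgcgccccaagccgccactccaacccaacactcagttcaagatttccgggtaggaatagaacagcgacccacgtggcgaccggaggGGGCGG
Ercc4: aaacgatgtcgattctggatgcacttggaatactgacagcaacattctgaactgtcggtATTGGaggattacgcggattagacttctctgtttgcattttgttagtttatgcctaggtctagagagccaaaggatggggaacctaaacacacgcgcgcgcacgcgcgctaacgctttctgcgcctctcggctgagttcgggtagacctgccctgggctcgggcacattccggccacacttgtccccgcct
Nthl1: ccgcgcgcgccTTTCGCGCgcaggtcctcc

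The E2F site was in 2 of the 41 windows (4.88%), those of Msh3 and Nthl1, and in 0.813% of the 32851 promoters of the table. CCAAT boxes were in 58.5% of the windows of these genes and in 37.4% of all promoters, and GC boxes in 70.7% and 35.7%. Among the windows of genes downregulated in the cold, 66.7% held a CCAAT box and 66.7% a GC box, whereas 54.5% and 77.3% did so among the windows of genes that were tested and not called. A match describes the letters of these windows and does not show that a factor was bound.

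Cold acclimation lowered the transcripts of 18 of the 44 repair genes tested, and 0 were called upregulated. The 18 were spread unevenly over the main pathways. They were 5 of 7 glycosylases (71.4%), 2 of 8 later factors of base excision repair (25%) and 2 of 12 nucleotide excision genes (16.7%). Mismatch repair had 4 of 5 genes (80%) and core end joining 5 of 9 (55.6%). The share of nucleotide excision genes was near the 16.0% of all genes tested. Calls were made with limma and needed a p under 0.05 after Benjamini-Hochberg adjustment together with a difference of 1 or more on the log2(TPM + 1) scale. This scale understates the change of genes with low TPM. Neil1 and Neil2 had a mean TPM under 1 and were not tested. The share called downregulated was 40.9% here and 16.0% over all 12227 genes tested, and 2.63% of all genes were called upregulated. At an unadjusted p under 0.05, 26 of the repair genes were lower and 1, Ercc4, was higher. The share of all genes at this p was not computed, so these counts describe the list only. Without a minimum fold, 19 repair genes (43.2%) passed as lower, against 17.4% of all genes, and 1 as higher, against 3.30%. In bulk RNA, fewer cells that express a gene and less of its RNA per cell cannot be told apart.

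The median log2 fold change was -0.83 over the 44 repair genes and -0.34 over all genes tested, so the repair genes lay 0.49 below the general shift (relative median -0.49). With libraries scaled by the median of ratios, the median of all genes was 0.03, and the repair genes lay at -0.47 relative to it. This scaling left 12 repair genes downregulated (27.3%, against 8.60% of all genes) and called 2 upregulated, Ercc4 and Rad23b (6.87% of all genes were). The calls lost were those of Smug1, Nthl1, Ercc5, Msh3, Xrcc6 and Nhej1, and all 18 genes kept a fold change below 0. The fit with replicate blocks called 20 downregulated (45.5%) and 0 upregulated, against 21.9% and 3.75% of all genes, and limma-voom on the recovered reads called 17 downregulated (38.6%, against 13.9%) and 1 upregulated (Ercc4, against 3.34%). The count depended on which libraries entered. It was 3 when the non-acclimated library of replicate 1 was left out and 2 for that of replicate 2. It was 3 and 4 when the cold-acclimated libraries of replicates 1 and 2 were left out in turn. For the libraries of replicate 3 it was 15 (non-acclimated) and 21 (cold-acclimated). Over all genes, between 345 and 2725 were called downregulated in these 6 fits. Lig3 and Lig4 were the repair genes called in every one of the 6.

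The TPM of the 2 conditions did not overlap for 28 repair genes that were lower (63.6%, against 31.4% of all genes) and 2 that were higher (Ercc4 and Dclre1c, against 9.69% of all genes being higher). In the remaining 14 the conditions overlapped. All 18 downregulated genes were lower at 26°C in each of the 3 replicates. They were called on these same values, so this is not separate support. The size of the difference was not the same in the replicates. A difference of -1 or lower on the log2 scale was seen in 21, 23 and 10 of the 44 genes in replicates 1, 2 and 3, against 26.5%, 30.8% and 15.3% of all genes. The median difference of the 44 genes was -0.97, -1.05 and -0.56, against -0.32, -0.44 and -0.24 over all genes. In 30 of the 44 genes replicate 3 had the smallest difference. Proliferation markers fell mainly in replicates 1 and 2. Their median difference in replicate 3 was -0.20, against -0.56 for the 44 repair genes. Of 15 markers tested, 4 were downregulated, against 16.0% of all genes, and 9 with replicate blocks, against 21.9%. Their median log2 fold change was -1.54. In all, 14, 15 and 0 had a difference of -1 or lower in replicates 1, 2 and 3, and their sum was 3189, 3384 and 3506 TPM in non-acclimated and 850 (849.9), 452 and 2974 TPM in cold-acclimated cells. Mki67 was 229.9, 235 and 163 TPM at 37°C and 62.1, 43.1 and 172.6 TPM at 26°C, and was not called (adjusted p = 0.0767, limma). The part of proliferation in the repair genes' values was not tested.

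**Figure D1:**
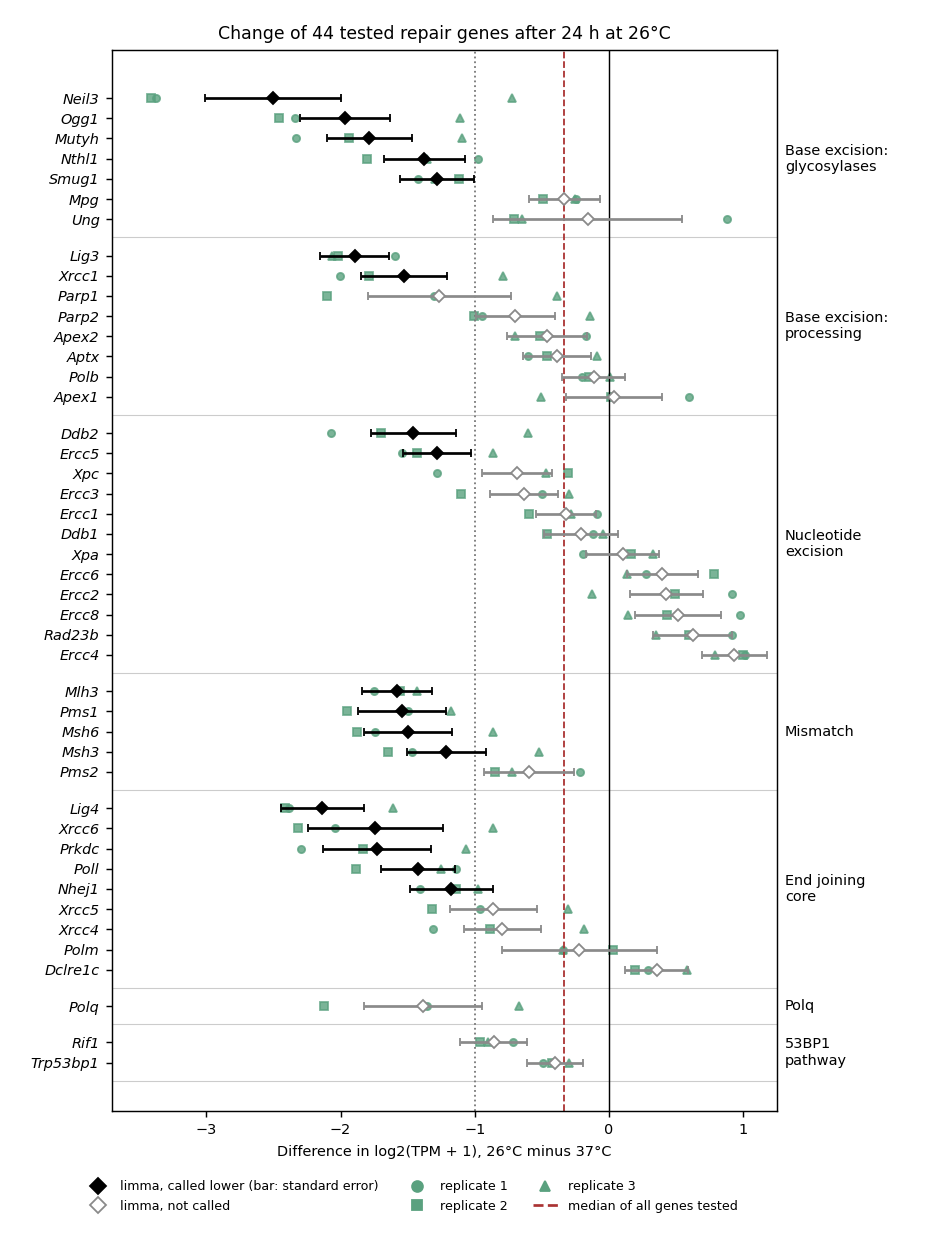
Difference in log2(TPM + 1) between 26°C and 37°C for the 44 tested repair genes, by pathway. Diamonds are limma estimates with standard errors (filled, called downregulated), small symbols are the differences of replicates 1, 2 and 3, and the dashed line is the median of all genes tested (-0.34). Most filled diamonds lie among glycosylases, mismatch repair and end joining, and the genes on the right belong mainly to nucleotide excision repair.

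Glycosylases, which open base excision repair by removing damaged bases, were mostly lower in the cold. Of 9 listed and 7 tested, 5 were downregulated (71.4%, against 16.0% of all genes). The group's median log2 fold change was -1.38, or -1.04 relative to all genes. Ogg1, the glycosylase for 8-oxoguanine, lies at chr6:113303959-113311149 (plus strand, GRCm39). It was at 20.8, 21.2 and 16.4 TPM in non-acclimated replicates 1, 2 and 3 and at 3.31, 3.04 and 7.08 TPM in the cold, a 4.35-fold lower mean (log2 fold change -1.97, SE 0.33, adjusted p = 0.0110, limma). Mutyh, which removes adenine paired with 8-oxoguanine and so acts on the same lesion, was at 8.88, 6.995 and 5.88 TPM against 0.962, 1.09 and 2.22 TPM, a 5.09-fold lower mean (-1.79, SE 0.32, adjusted p = 0.0123). For this pair of genes every cold-acclimated value was below every non-acclimated value, and the highest cold value was in replicate 3.

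Neil3, a glycosylase of proliferating cells that acts on oxidised bases and on crosslinks at replication forks, had the largest fold change of the 44 genes on the log2(TPM + 1) scale. With a pseudocount of 0.1 it was -2.62, against -2.84 for Lig4, and with limma-voom -2.44, against -2.78. Its TPM was 80.7, 80.9 and 36.3 at 37°C and 6.86, 6.69 and 21.6 at 26°C, or 66.0 ± 25.7 against 11.7 ± 8.53 (SD, n = 3 each), with a log2 fold change of -2.51 (SE 0.51). The difference was -3.38 and -3.41 in replicates 1 and 2 and -0.72 in replicate 3, and without the cold-acclimated library of replicate 3 the fit gave -3.02. Smug1, which removes uracil and oxidised pyrimidines, was at 17.3, 16.3 and 23.8 TPM against 5.82, 6.96 and 9.11 TPM, a fall of similar size in each replicate (-1.42, -1.12 and -1.29). Nthl1, the endonuclease III homologue for oxidised pyrimidines, was at 8.26, 11.6 and 7.10 TPM against 3.72, 2.61 and 2.16 TPM. Its fall was largest in replicate 2 (-1.80) and was -1.36 in replicate 3, unlike that of Neil3.

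The other uracil and alkylation glycosylases were not called. Ung, the main uracil glycosylase, which also serves antibody diversification in B cells, varied more between replicates than between conditions, at 5.56, 22.0 and 45.8 TPM against 11.1, 13.1 and 28.9 TPM. Its log2 fold change of -0.16 was 0.48 without the non-acclimated and -0.56 without the cold-acclimated library of replicate 3. Mpg, which removes alkylated purines, was at 42.4 ± 8.36 TPM and 33.6 ± 7.60 TPM (log2 fold change -0.33, SE 0.26). The other 2 genes of the Nei family were near the limit of detection. Neil1 had the lowest mean of the 46 genes, between 0.112 and 0.927 TPM or 2 to 29 recovered reads in a library. Neil2 was at 0.593, 1.07 and 0.732 TPM against 0.352, 0.339 and 0.464 TPM, lower without overlap, on 9 to 26 reads. In the limma fit without a filter on low values neither was called (adjusted p = 0.884 for Neil1 and 0.135 for Neil2). The few reads limit both results.

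After the base is removed, ligase III with XRCC1 is one of the means of closing a short gap. Lig3 (chr11:82671977-82695100, plus strand, GRCm39) was at 30.7, 42.8 and 32.3 TPM in non-acclimated cells. In cold-acclimated cells it was at 9.47, 9.81 and 6.96 TPM, a 4.03-fold lower mean (log2 fold change -1.89, SE 0.26, adjusted p = 0.00744). It was the smallest adjusted p of the 44 genes. Replicate 3 showed a fall as deep as the others (-1.60, -2.02 and -2.06 in replicates 1, 2 and 3). Xrcc1, the scaffold that ligase III binds, was at 38.9, 49.999 and 34.6 TPM against 8.96, 13.8 and 19.6 TPM, and its fall went from -2.002 in replicate 1 to -0.79 in replicate 3 (log2 fold change -1.53, SE 0.32).

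The enzymes before the ligation step were not called. Apex1, the main endonuclease at abasic sites, was at 76.3 ± 33.4 and 73.0 ± 8.80 TPM, and Polb, the gap-filling polymerase, at 22.8 ± 3.68 and 20.9 ± 1.84 TPM (log2 fold changes 0.03, SE 0.36, and -0.11, SE 0.24). Aptx, which clears stalled ligation ends, had a log2 fold change of -0.39 and Apex2, the minor endonuclease, of -0.46, with a TPM between 0.872 and 2.35 for Apex2. Parp1, the abundant sensor of strand breaks, was chosen for its values, at 177.5, 288 and 335 TPM against 71.1, 66.5 and 256.2 TPM. The lowest non-acclimated library and the cold-acclimated library of replicate 3 overlapped, and it was not called (log2 fold change -1.26, SE 0.53, adjusted p = 0.127). With replicate blocks the adjusted p was 0.0256 and Parp1 was called, and without the cold-acclimated library of replicate 3 the log2 fold change was -1.89. Over the fits without blocks that left out 1 library the adjusted p ranged from 0.00710 to 0.335. Parp2, its smaller relative, had a log2 fold change of -0.70 (SE 0.29).

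The 12 genes of nucleotide excision repair were spread to either side of 0. Their median log2 fold change was -0.05, which was 0.28 above that of all genes, and 6 of the 12 were below 0. The log2 fold changes ran from -1.46 to 0.93. Ddb2, the ultraviolet damage sensor, and Ercc5, which encodes the nuclease XPG, were downregulated. These 2 of 12 genes make 16.7%, near the 16.0% of all genes tested. Ddb2 was at 44.8, 33.1 and 24.7 TPM against 9.93, 9.50 and 15.9 TPM (-1.46, SE 0.32, adjusted p = 0.0211). Ercc5 was at 14.9, 15.6 and 11.7 TPM against 4.43, 5.13 and 5.95 TPM (-1.28, SE 0.25, adjusted p = 0.0165). Both sets of values were free of overlap, and their fall was smallest in replicate 3 (-0.60 and -0.87).

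Ercc4 (chr16:12927600-12969873, plus strand, GRCm39) encodes XPF, the nuclease that cuts on the other side of the lesion from XPG and that also acts on crosslinks. It was at 10.8, 9.71 and 13.9 TPM in non-acclimated and 22.7, 20.4 and 24.7 TPM in cold-acclimated cells, a 1.97-fold higher mean. The log2 fold change of 0.93 (SE 0.24) passed the p threshold (adjusted p = 0.0350) but not the minimum fold. With the median of ratios scaling it was 1.32 (adjusted p = 0.0159). With TPM as deposited, its adjusted p reached 0.136 without single libraries. The differences of the 3 replicates were close, at 1.01, 1.00 and 0.79.

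Rad23b, the partner that stabilises XPC, was also chosen for its values, since it was called upregulated with the median of ratios scaling. It was abundant, at 147.0, 203 and 288.6 TPM against 278.5, 308 and 368.5 TPM, and although it was higher in each replicate the conditions overlapped (0.62, SE 0.29, adjusted p = 0.163, and 1.04 with adjusted p = 0.0392 when scaled). With TPM as deposited, leaving out single libraries gave adjusted p up to 0.381. Xpc itself, the sensor of the global pathway, lay on the other side, at 33.2 ± 7.10 and 20.2 ± 3.78 TPM (-0.69, SE 0.26). Ercc6 and Ercc8, the factors that couple repair to transcription, had log2 fold changes of 0.40 and 0.52, and the TFIIH helicase genes Ercc2 and Ercc3 of 0.43 and -0.63. Ercc1, the obligate partner of XPF, had -0.32 (SE 0.22) and Xpa, the scaffold of the pathway, 0.10 (SE 0.27). None of these 7 passed the test. Ddb1, the large subunit of the DDB complex and an adaptor of CUL4 ubiquitin ligases, had the highest mean of the 46 genes, at 377.7, 381.5 and 503.3 TPM against 347.8, 277.2 and 488.4 TPM (-0.21, SE 0.28).

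**Figure D2:**
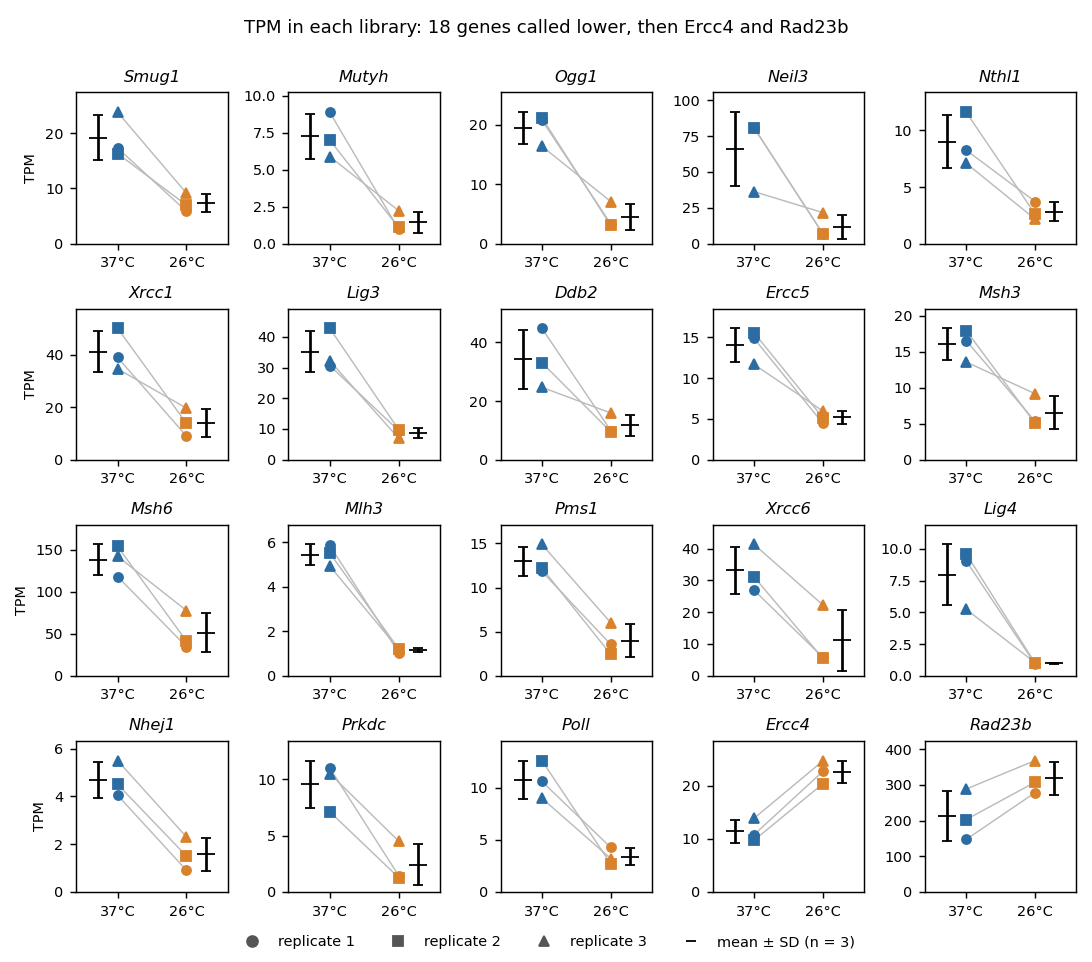
TPM in each library of the 18 downregulated genes and of Ercc4 and Rad23b, with 37°C on the left and 26°C on the right of each panel. Symbols joined by a line share a replicate number, and bars give the mean and SD (n = 3). All 18 genes have every 26°C value below every 37°C value, Ercc4 has the reverse, and the line of replicate 3 is often the flattest.

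In mismatch repair, 4 of the 5 genes listed were downregulated (80%, against 16.0% of all genes), and the median log2 fold change was -1.49. Msh3 and Msh6 are the alternative partners that give the MutS complexes their range, for loops and for single mismatches. Msh6 was the more abundant, at 117.9, 153.7 and 142.0 TPM against 34.5, 41.1 and 77.5 TPM (-1.49, SE 0.33, adjusted p = 0.0214). Msh3 (chr13:92348387-92491515, minus strand, GRCm39) was at 16.6, 17.96 and 13.6 TPM against 5.34, 5.06 and 9.17 TPM (-1.21, SE 0.29, adjusted p = 0.0284). In each the conditions did not overlap, and replicate 3 had the smallest difference, -0.87 and -0.52.

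The MutL subunits differed more from each other. Mlh3 (chr12:85281240-85317421, minus strand, GRCm39), which acts in meiotic crossing over and in repair of loops, was low but tight, at 5.86, 5.52 and 4.94 TPM against 1.04, 1.21 and 1.21 TPM. Its mean fell 4.72-fold (log2 fold change -1.58, SE 0.26, adjusted p = 0.0101), and the call held in 4 of the 6 fits without a library. Pms1, a subunit of less certain role, was at 11.8, 12.2 and 14.9 TPM against 3.55, 2.42 and 6.01 TPM (-1.54, SE 0.33). Pms2, the endonuclease subunit of the main MutL complex, was at 16.1 ± 5.92 and 10.1 ± 2.69 TPM and was not called (-0.60, SE 0.34, adjusted p = 0.239).

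Core end joining held 9 genes, of which 5 were downregulated (55.6%, against 16.0% of all genes), with a median log2 fold change of -1.17. Lig4 (chr8:10020020-10027680, minus strand, GRCm39), the ligase that seals the break, had the largest fold between means of the 46 genes. It was at 9.05, 9.62 and 5.24 TPM in non-acclimated cells and at 0.928, 0.996 and 1.04 TPM in cold-acclimated cells, 8.07-fold lower (log2 fold change -2.14, SE 0.31, adjusted p = 0.00788). The cold-acclimated values rested on 34, 38 and 45 recovered reads, against 263, 335 and 267. The 3 cold values were close together although the non-acclimated value of replicate 3 was lower than the others. Xrcc4, the partner without which ligase IV is unstable, was at 15.5, 12.1 and 9.29 TPM against 5.66, 6.08 and 8.06 TPM and was not called (-0.79, SE 0.29, adjusted p = 0.0842). Nhej1, which encodes the filament protein XLF that works with XRCC4, was at 4.05, 4.50 and 5.50 TPM against 0.905, 1.502 and 2.30 TPM (-1.17, SE 0.31). Its cold values rested on 11, 19 and 33 reads, the lowest being the fewest of any tested gene here, and limma-voom on reads did not call it (adjusted p = 0.0652, against 0.0373 with limma on TPM, where it ran from 0.0203 to 0.130 without single libraries).

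The Ku heterodimer is encoded by Xrcc6 (Ku70) and Xrcc5 (Ku80). Xrcc6 was at 26.9, 31.1 and 41.3 TPM against 5.79, 5.44 and 22.2 TPM and was called by a narrow margin (-1.74, SE 0.50, adjusted p = 0.0473). The difference was -2.04 and -2.32 in replicates 1 and 2 and -0.86 in replicate 3. Without the non-acclimated library of replicate 3 it was -1.57 and not called, and without the cold-acclimated one -2.34. Xrcc5 was at 42.2, 55.2 and 54.0 TPM against 21.2, 21.5 and 43.5 TPM, where the cold-acclimated library of replicate 3 lay above the lowest non-acclimated one, and was not called (-0.86, SE 0.32, adjusted p = 0.0955). Without that cold-acclimated library it was -1.19 and was called. Prkdc, the catalytic subunit of DNA-PK that Ku recruits, was at 11.001, 7.11 and 10.5 TPM against 1.45, 1.28 and 4.51 TPM (-1.73, SE 0.40, adjusted p = 0.0253). Its call held in 1 of the 6 fits without a library. Dclre1c, which encodes the nuclease Artemis that DNA-PK activates, was higher in the cold without overlap, at 12.8, 12.2 and 9.57 TPM against 15.8, 14.2 and 14.8 TPM, but was not called (0.36, SE 0.24). Overlap with another gene bears on some of the values, since Xrcc6 shares 23641 bases with Desi1 and Dclre1c 18397 bases with Suv39h2 on opposite strands. Of the 46 genes, 19 overlapped a gene with a mean TPM of at least 1. Among them, on opposite strands, were Ddb2 (2520 bases with Acp2) and Xpc (8874 bases with Gm52912). Pms1 (1583 bases with Gm28777) and Trp53bp1 (3936 bases with Tubgcp4) were 2 more. The libraries kept strand, but the strand setting of the counting is not given in the sources used here, so reads of such partners may not have been told apart.

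Of the gap-filling polymerases of the X family, Poll was at 10.6, 12.6 and 8.99 TPM against 4.26, 2.69 and 3.20 TPM (-1.42, SE 0.27, adjusted p = 0.0156). Polm, its relative, was at 14.2, 11.2 and 4.01 TPM against 10.98, 11.4 and 2.95 TPM, so that replicate 3 differed more from the others than the cold did (-0.22, SE 0.58). Polq, the polymerase theta of the alternative pathway that joins ends through short homologies, was at 6.51, 6.42 and 7.98 TPM against 1.93, 0.701 and 4.63 TPM. Its log2 fold change was -1.39 (SE 0.44), it missed the threshold (adjusted p = 0.0621, with 0.0108 to 0.162 when single libraries were left out of this fit), and it was called with replicate blocks (adjusted p = 0.0206). Without the cold-acclimated library of replicate 3 it was -1.83 and was called. Rif1 and Trp53bp1, which protect broken ends from resection, were lower in every replicate and by less. Rif1 was at 39.9, 42.0 and 31.3 TPM against 23.9, 21.1 and 16.3 TPM (-0.86, SE 0.25, adjusted p = 0.0479), under the minimum fold. Trp53bp1, which recruits Rif1, was at 34.8, 30.6 and 30.4 TPM against 24.5, 22.5 and 24.5 TPM (-0.40, SE 0.21), near the median of all genes.

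Many of these proteins work in fixed partnerships or as alternatives, so the ratio of TPM between 15 pairs of genes, chosen after the values were seen, was compared within each library, where a scaling of the library cancels out. In 10 of the 15 pairs the ratios of the conditions did not overlap. No share over other pairs of genes was computed, so this count describes only the pairs chosen. With 3 libraries against 3, the two-sided exact permutation test cannot go below p = 0.1 (adjusted p = 0.15 over the 15 pairs), so no pair could pass the threshold. The log2 ratio of Lig4 to Xrcc4 was -0.78, -0.33 and -0.83 at 37°C and -2.61, -2.61 and -2.95 at 26°C, a difference of -2.08. That of Dclre1c to Prkdc was 0.22, 0.78 and -0.13 against 3.45, 3.47 and 1.72, the largest difference of the 15 at 2.59. The nuclease pair Ercc4 and Ercc1 went from -1.28 ± 0.34 to 0.05 ± 0.17 (SD, n = 3), so that the level of Ercc4 came up to that of Ercc1.

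Of the MutL genes, the log2 ratio of Mlh3 to Pms2 went from -1.50 ± 0.67 to -3.10 ± 0.35 and that of Pms1 to Pms2 from -0.25 ± 0.38 to -1.40 ± 0.32, without overlap. The same held for Ddb2 to Ddb1 (difference -1.33), Xpc to Rad23b (-1.34), Xrcc6 to Xrcc5 (-0.99), Ercc2 to Ercc3 (1.09) and Rif1 to Trp53bp1 (-0.47). In 5 pairs the conditions overlapped. Lig3 to Xrcc1 differed by -0.41, Msh3 to Msh6 by 0.17, Ercc6 to Ercc8 by -0.13, Parp2 to Parp1 by 0.52 and Poll to Polm by -1.42. For the MutS partners, both downregulated, the ratio was -3.10 ± 0.28 at 37°C and -2.93 ± 0.21 at 26°C.

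**Figure D3:**
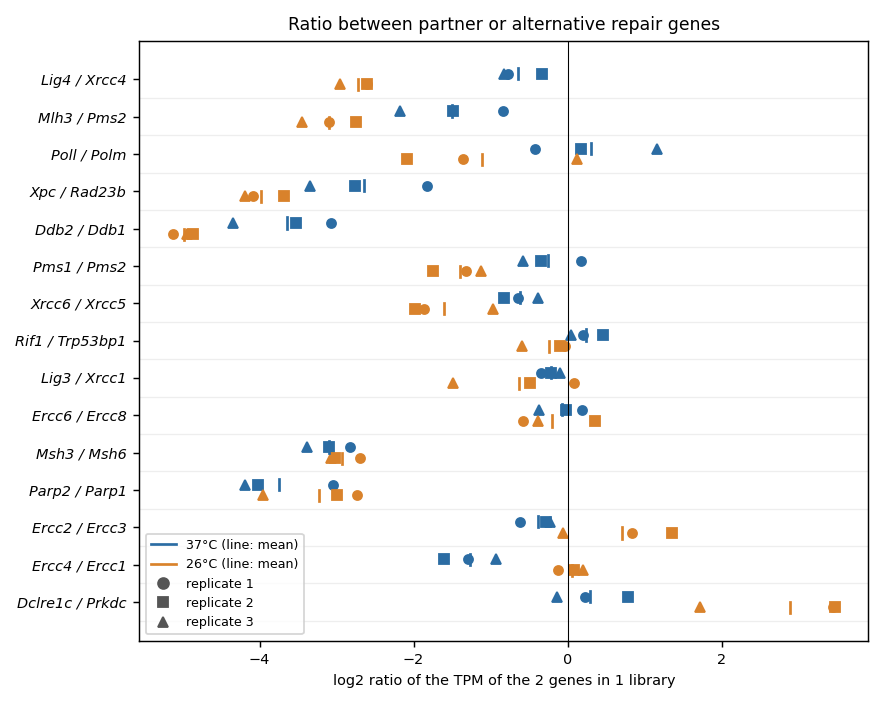
log2 ratio of the TPM of 2 partner or alternative repair genes within each library, at 37°C and 26°C, with symbols for replicates 1, 2 and 3 and a line at each mean. Lig4 to Xrcc4 lies lower and Dclre1c to Prkdc and Ercc4 to Ercc1 lie higher at 26°C without overlap, whereas Msh3 to Msh6 and Lig3 to Xrcc1 overlap.

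A list of 59 other genes of the same pathways gave the surroundings. Of 56 tested, 11 (19.6%, against 16.0% of all genes) were downregulated and 1 upregulated (2.63% of all genes were), and the median log2 fold change was -0.65, or -0.31 relative to all genes. The count was 22 with replicate blocks (21.9% of all genes), and with 1 library left out it ran from 3 (non-acclimated library 2, or cold-acclimated library 1) and 5 (non-acclimated library 1, or cold-acclimated library 2) to 25 (cold-acclimated library 3). Over all genes the fits without a library called 345 to 2725 downregulated. Shld3, a subunit of the shieldin complex that acts below 53BP1 and RIF1, was the upregulated gene, at 4.92, 5.97 and 5.61 TPM against 18.9, 23.2 and 27.9 TPM (1.89, SE 0.25, adjusted p = 0.00740). Cyren, an inhibitor of end joining that binds Ku, went the other way, at 24.6, 22.3 and 31.2 TPM against 3.47, 3.57 and 7.26 TPM (-2.28, SE 0.32). Aplf, a factor that links Ku and XRCC4 to PARP signals, was at 11.2, 13.6 and 6.56 TPM against 0.257, 0.192 and 1.62 TPM (-2.80, SE 0.42). All values of these 3 genes were free of overlap, and each kept its call without any single library.

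Cul4a, the scaffold of the ubiquitin ligase that holds DDB1 and DDB2, was at 59.7, 78.3 and 52.9 TPM against 10.8, 11.1 and 18.8 TPM (-2.17, SE 0.29). Mbd4, a glycosylase for thymine and uracil at CpG mismatches, had a log2 fold change of -2.04 and Mdc1, the adaptor at broken ends, of -1.85. Also downregulated were Tdp1 (-1.62), which frees trapped topoisomerase ends, the polymerase subunits Pold3 (-1.59) and Pole2 (-2.35), and the TFIIH subunit Gtf2h4 (-1.94). The same held for the ligase gene Lig1 (-2.21) and the polymerase subunit Pold1 (-2.44). Of the 6 fits without a library, Tdp1, Pold3 and Gtf2h4 kept the call in 2, and Pole2, Lig1 and Pold1 in 1. By pathway, 7 of 20 base excision (35%), 2 of 19 nucleotide excision (10.5%), 2 of 9 end-joining (22.2%) and 0 of 6 mismatch repair genes were downregulated. Over all genes tested the share was 16.0%. The 6 mismatch genes, which include shared replication factors, had a median of -1.54, -2.40 and -0.41 in replicates 1, 2 and 3. Of them 4 were lower at an unadjusted p under 0.05 with limma, where the share of all genes was not computed. With replicate blocks 4 of the 6 were called downregulated, against 21.9% of all genes, and with limma-voom 0, against 13.9%. In direct reversal, Mgmt was listed at 0 in all 6 libraries.

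**Figure D4:**
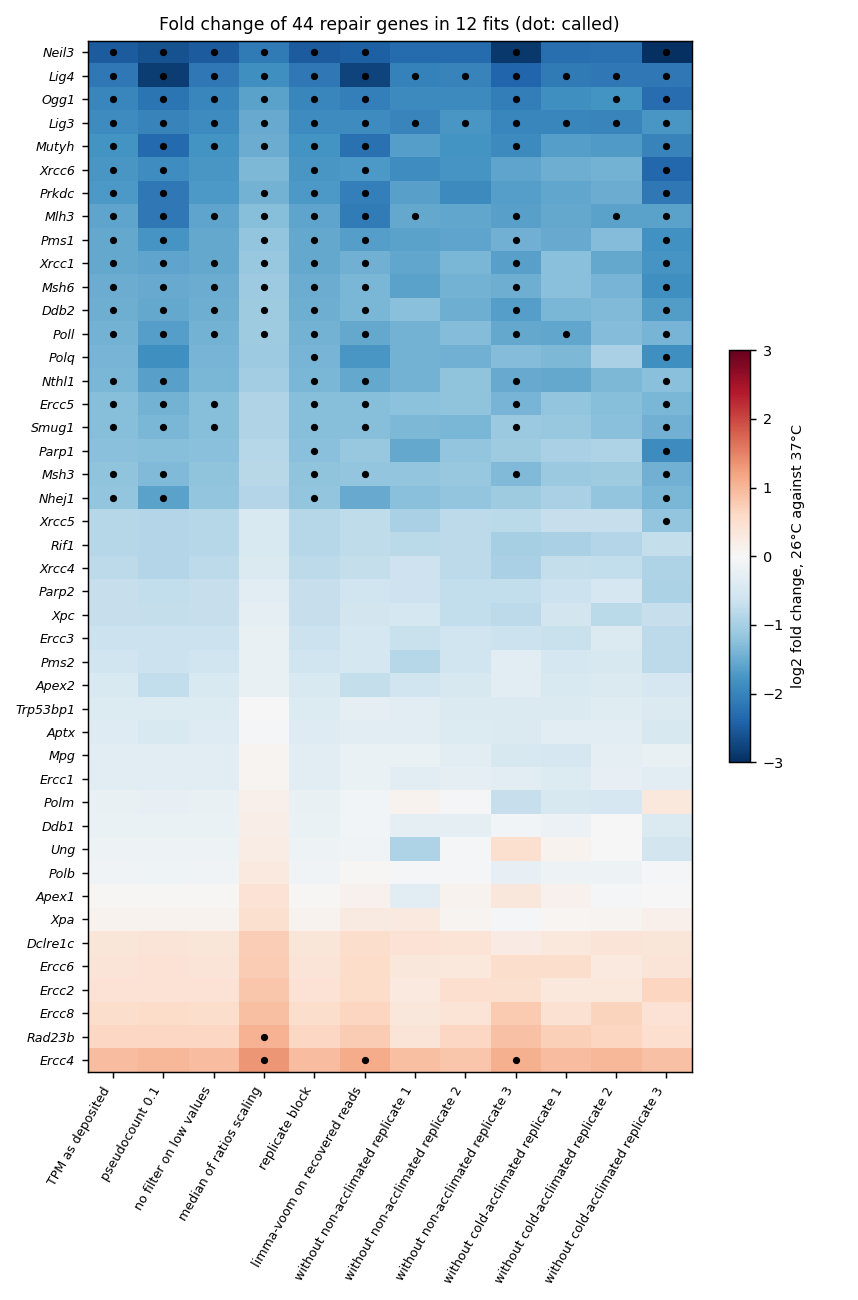
log2 fold change (colour) of the 44 tested repair genes in 12 fits, the first as reported and the other 11 with 1 choice changed, with a dot where a gene was called. Lig3 and Lig4 carry a dot in all 12, most other dots disappear when a non-acclimated or cold-acclimated library of replicate 1 or 2 is left out, and Ercc4 carries a dot in 3 fits.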

How the data were processed

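The authors aligned trimmed paired reads of strand-specific poly(A)+ libraries to GRCm39 with HISAT2 2.1.0, counted them per gene with featureCounts 1.6.3 (Trimmomatic 0.38 and FastQC 0.11.7 are in the submitters' processing notes) and deposited TPM. Neither the annotation release nor the strand setting nor the making of TPM is stated there. Read numbers were recovered as whole multiples of each gene's common step for all 21195 genes above 0 (largest deviation 8.73e-11 reads). Precision at low TPM is limited by these numbers. The test was limma 3.58.1 (R 4.3.3), with its trend option, applied to log2(TPM + 1) for the 12227 genes whose mean TPM reached 1, followed by Benjamini-Hochberg adjustment. The study's methods test counts, whereas the unit here is TPM. Other values were computed with Python 3.11.15 and scipy 1.17.1. Same-numbered libraries deviated together (correlations 0.48, 0.50 and 0.51, others from -0.41 to 0.02), so the replicate numbers appear to pair them, as found from the data. The values were centred within each condition, which by itself pushes the other correlations down. Neither the main fit nor the permutation test of ratios used this pairing. Alternatives were a pseudocount of 0.1, no filter, median of ratios scaling, replicate blocks, limma-voom on the recovered reads and leaving out each of the 6 libraries. The procedure was run on simulated counts with no replicate differences and no general shift built in. The effect of these on the calls was therefore not tested by it. Values are given for each called gene, the 2 smallest p of each pathway and of Polq, Rif1 and Trp53bp1, the highest and lowest mean, the 10 smallest p of called other repair genes, and Mki67; further genes were chosen after their values were seen. The genes and lists were chosen with earlier results of these data known.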

Additional observations from a re-analysis of the deposited data

How the results depend on the processing

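The pseudocount of 0.1 changed no call of the 44 repair genes. Without a filter on low values, 21195 genes were tested, of which 1121 were downregulated. Among them were 12 repair genes, the calls lost being those of Nthl1, Msh3, Pms1, Xrcc6, Nhej1 and Prkdc. The relative median was then -0.68. At any fold, 12 repair genes were then lower and 0 higher, against 1361 and 307 of the 21195 genes. Of the other repair genes, 7 were downregulated without the filter. Median of ratios scaling gave 2 upregulated repair genes, the same 2 at any fold, and 4 upregulated other repair genes (6.87% of all genes were upregulated). limma-voom gave 1. The fit with replicate blocks called 22 other repair genes downregulated, against 21.9% of all genes. It gave 2 repair genes higher at any fold, against 843 of all 12227 genes. Besides Parp1 and Polq it changed no call of a repair gene. Leaving out 1 library gave 2 to 21 downregulated and 0 to 1 upregulated repair genes, 2 to 23 lower and 0 to 1 higher at any fold, 3 to 25 downregulated other repair genes, and a relative median from -0.56 to -0.38. Of all 12227 genes, these fits called 345 to 2725 downregulated and 59 to 459 upregulated. At any fold they gave 345 to 2996 lower and 59 to 580 higher. In these fits 16 of the 18 downregulated genes lost the call at least once. The call held in 4 of the 6 for Mlh3, in 3 for Ogg1 and Poll, and in 1 for Xrcc6, Nhej1 and Prkdc. It held in 2 for Smug1, Mutyh, Neil3, Nthl1, Xrcc1, Ddb2, Ercc5, Msh3, Msh6 and Pms1. None of the 18 changed direction under the 11 alternatives, which used the same libraries that gave the calls. A condition reduced to 2 libraries is compared with fewer residual degrees of freedom, and beyond this the cause of the changes was not tested. Among genes not called, 6 were below 0 as deposited and above it when scaled, at 0.23 (Ung), 0.072 (Mpg), 0.28 (Polb), 0.21 (Ddb1), 0.078 (Ercc1) and 0.15 (Polm), and Polb was 0.026 with limma-voom. Over the fits leaving out single libraries, the log2 fold change spanned 0 for Ung (-0.93 to 0.48), Apex1 (-0.35 to 0.33), Xpa (-0.063 to 0.29) and Polm (-0.70 to 0.32). Depth limits Neil1 and Neil2, and Nhej1 at 26°C with 11 to 33 reads.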

Other observations

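Several repair genes start close to a gene on the opposite strand. By the coordinates of the table (GRCm39), 20 of the 46 had a start on the other strand within 1000 bases, and 15 of these neighbours were protein-coding and tested. With limma 0 of the 15 were called, against 16.0% of all genes called lower and 2.63% higher. An unadjusted p under 0.05 was seen in 5, and the share of all genes at this p was not computed. With replicate blocks 3 of the 15 were called, against 21.9% lower and 3.75% higher, and 0 with limma-voom or with median of ratios scaling. Of the 18 downregulated repair genes, 7 had such a neighbour. The starts of Lig4 and Abhd13 are 37 bases apart, and Abhd13 was at 21.9, 23.5 and 18.3 TPM at 37°C against 29.0, 35.1 and 22.9 TPM at 26°C (log2 fold change 0.42, SE 0.25), while that of Lig4 was -2.14. Toe1, 61 bases from Mutyh, had -0.40 (SE 0.29), and Ormdl1, 64 bases from Pms1, had -0.54 (SE 0.26), against -1.79 and -1.54 for the repair genes. Mcm4, 434 bases from Prkdc, was at 124.0, 170.8 and 292.1 TPM against 45.6, 36.3 and 327.6 TPM, so that in replicate 3 it was higher in the cold while Prkdc was at 10.5 and 4.51 TPM. The difference between the genes of a pair was not tested.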
